A study of Rattus norvegicus with 6 samples.

Results

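Complement genes and their regulators were followed across 3 conditions of cultured heart muscle cells of newborn rats. The group comprised 9 genes, C1r, C1s, Masp1, C3, Cfb, Cfd, Serping1, Cd55 and Cd59, chosen by their gene symbols in the platform annotation. They were read by 15 of 31042 probe sets, a probe set being the array's set of short probes for a transcript. Of these, 11 probe sets carried 1 gene symbol and stood for 8 genes. The other 4 were annotated to both Cfb and its neighbour C2, so no value of Cfb alone was available here. Cd59 was found as Cd59b, for which the RefSeq table lists Cd59 as a synonym.

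Each array was hybridized with labelled RNA of heart muscle cells isolated from Wistar rats aged 1 to 2 days, and no genetic change is named in the labels. Cells of the stretch group were stretched biaxially to 112% for 24 h, after 36 h on a collagen-coated silicone membrane and 24 h without serum. Cells of the phenylephrine group received this α1-adrenergic agonist at 50 µmol/l, for a time that no label gives. Control cells had no treatment. Each group had 2 arrays (n = 2 throughout), the RNA was combined from several cell preparations before labelling, and separate cultures for each array are not mentioned. The spread on which the p-values rest is thus that of these samples and may be technical. Fibroblasts had been depleted on a Percoll density gradient, so the cultures may hold some of them. Of control and phenylephrine cells the labels give neither the surface nor the time without serum, so stretch and growth on the membrane cannot be told apart.

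Complement is a cascade of proteases and binding proteins that marks cells and debris for removal and can perforate membranes. The classical pathway starts when C1q engages the proteases C1r and C1s. The lectin pathway starts when collectins or ficolins engage MASP proteases, and the alternative pathway runs on C3, factor B and factor D. All of them meet at the cleavage of C3. Serping1 encodes the C1 inhibitor, which blocks C1r, C1s and some MASP proteases. Cd55 and Cd59 are membrane proteins that protect a cell from its own complement, by dissolving C3-cleaving complexes and by blocking the final pore. The liver makes most plasma complement, and fibroblasts and macrophages make many components locally.

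Values are log2 signals as deposited by the authors, and a difference of 1 means a factor of 2. Differences are given with the standard error (SE) of a limma fit across all 31042 probe sets, and a probe set passed when its Benjamini-Hochberg adjusted p was under 0.05. The medians of the 6 arrays differed by at most 0.0381 log2. Phenylephrine replicate 2 stood apart, with a median of 9.31 log2 for its spike-in controls, against 10.1 to 10.4 log2 on the other arrays. It also had the narrowest interquartile range, 1.70 against 1.80 to 1.92 log2. In every group replicate 2 had a narrower range than replicate 1. The ranges were 1.82 against 1.91 log2 in control cells, 1.70 against 1.89 log2 with phenylephrine and 1.80 against 1.92 log2 with stretch. The phenylephrine arrays also had the smallest 3′ minus 5′ difference for GAPDH, a measure of RNA integrity, at 0.248 and 0.304 log2, against 0.356 to 0.587 log2 on the other 4 arrays. Their beta-actin difference was the smallest too (0.97 to 1.04 against 1.10 to 1.41 log2). By contrast, their hexokinase difference was the largest (1.65 and 1.88 against 1.29 to 1.49 log2). The 5S rRNA probe set read 10.6 and 9.37 log2 with phenylephrine, and was lowest on replicate 2. It read 10.7 and 11.1 log2 with stretch and 11.4 and 11.8 log2 in control cells.

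Among the complement genes, C3 was lower under both stimuli and Masp1 was lower under phenylephrine. With stretch, C3 was 1.62-fold below control, and it was the 1 probe set of 15 that passed, with 0 higher. Over all probe sets 0.345% passed in this comparison, 0.306% as higher and 0.0387% as lower. With phenylephrine, 3 of 15 probe sets passed, all lower: C3 (1.45-fold) and 2 of the 3 probe sets of Masp1 (2.52-fold and 1.40-fold). The share over all probe sets was 3.6%, with 1.73% higher and 1.87% lower. Between stretch and phenylephrine, 1 of 15 passed, a Masp1 probe set that was 2.13-fold higher with stretch, against 1.33% over all probe sets, 0.718% as higher and 0.612% as lower. The remaining 6 genes with a probe set of their own, C1r, C1s, Cfd, Serping1, Cd55 and Cd59, did not pass in any of the 3 comparisons. The comparisons share arrays, so a low or high array enters more than 1 of them.

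**Figure D1:**
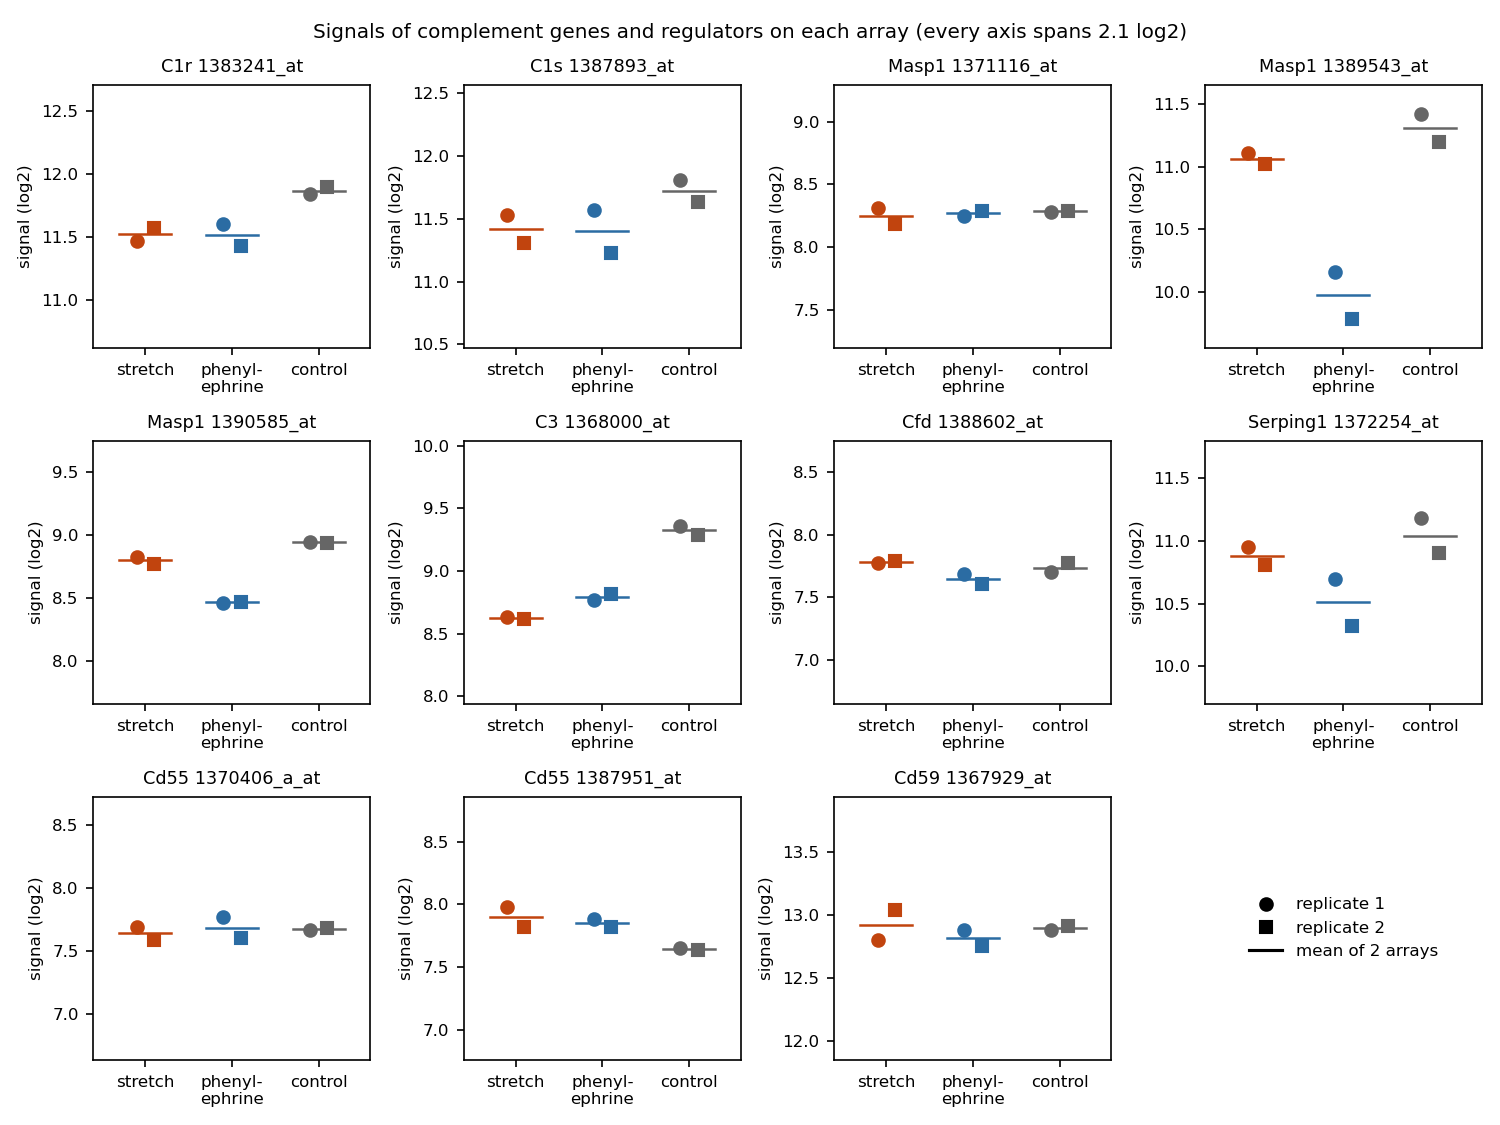
Log2 signal of the 11 probe sets with 1 gene symbol on each of the 6 arrays, with the stretch, phenylephrine and control groups from left to right. Circles are replicate 1, squares replicate 2, and lines the mean of 2 arrays. C3 lies lower on all 4 treated arrays than on both control arrays, and Masp1 probe set 1389543_at is lowest on the phenylephrine arrays, at 10.16 and 9.79 log2.

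C3 encodes the component on which all pathways meet. Its probe set, 1368000_at, read 8.63 and 8.62 log2 on the stretch arrays and 8.77 and 8.82 log2 on the phenylephrine arrays, against 9.36 and 9.29 log2 on the control arrays. The 3 groups did not overlap, with both stretch arrays lowest and both control arrays highest. C3 fell with stretch by 0.70 ± 0.08 log2 (SE; adjusted p = 0.0133) and with phenylephrine by 0.53 ± 0.08 log2 (SE; adjusted p = 0.012). The difference between stretch and phenylephrine was -0.17 log2, with a 95% interval of -0.34 to 0.01 (adjusted p = 0.438), and did not pass. With any 1 of the 4 stretch and control arrays left out, the change with stretch stayed between -0.73 and -0.67 log2 but no longer passed (adjusted p = 0.118 to 0.199). The call with phenylephrine ended without control replicate 1 (adjusted p = 0.105) or control replicate 2 (adjusted p = 0.0868). In bulk samples such as these, fewer cells of a type and less RNA per cell cannot be told apart.

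Masp1 encodes MASP-1, a protease of the lectin pathway, and also MASP-3, and its 3 probe sets did not give the same result. Probe set 1389543_at read 11.11 and 11.02 log2 with stretch, 10.16 and 9.79 log2 with phenylephrine, and 11.42 and 11.20 log2 in control cells. The phenylephrine arrays were the lowest by a wide margin, and the stretch arrays lay just below the controls without overlap. The fall with phenylephrine was 1.33 ± 0.15 log2 (SE; adjusted p = 0.00504). It passed with each of the 6 arrays left out in turn, with adjusted p between 0.0102 and 0.0467, and was -1.14 log2 (adjusted p = 0.0153) without phenylephrine replicate 2. Stretch minus control was -0.24 ± 0.15 log2 (SE; adjusted p = 1) and did not pass. Stretch minus phenylephrine was 1.09 ± 0.15 log2 (SE; adjusted p = 0.0201), which ended without stretch replicate 1 (adjusted p = 0.159) or stretch replicate 2 (adjusted p = 0.123).

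The second Masp1 probe set, 1390585_at, read 8.83 and 8.77 log2 with stretch, 8.46 and 8.47 log2 with phenylephrine, and 8.95 and 8.94 log2 in control cells, so the order of the groups was the same as for 1389543_at. It fell with phenylephrine by 0.48 ± 0.07 log2 (SE; adjusted p = 0.0133), and the call ended without control replicate 1 (adjusted p = 0.104) or control replicate 2 (adjusted p = 0.114). Its difference between stretch and phenylephrine, 0.33 ± 0.07 log2 (SE; adjusted p = 0.0834), did not pass. Probe set 1371116_at lay between 8.18 and 8.31 log2 on all 6 arrays, near the array medians, and its groups overlapped in each comparison. The 95% intervals of the change with phenylephrine were -1.69 to -0.98, -0.65 to -0.32 and -0.18 to 0.14 log2 for the 3 probe sets, and did not overlap. The fall was smaller where the probe set was dimmer, with means over the 6 arrays of 10.78, 8.74 and 8.27 log2 in the same order. Dim signals give compressed folds, and the part of this in the difference between the probe sets was not tested. Which transcripts of Masp1 each probe set reads was not analysed here.

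The promoters of C3 and Masp1 are shown because these were the genes among the 9 that passed, and both were lower with phenylephrine. Each window runs from 250 bases before to 50 bases after the start of the gene in RefSeq on the rat build GRCr8, on the strand of the gene. RefSeq windows were at hand for 5 of the 9 genes. The C3 window is chr9:2201290-2201589 on the minus strand and the Masp1 window chr11:90839472-90839771 on the plus strand. Capitals mark matches to 5 short motifs, searched on both strands.
C3: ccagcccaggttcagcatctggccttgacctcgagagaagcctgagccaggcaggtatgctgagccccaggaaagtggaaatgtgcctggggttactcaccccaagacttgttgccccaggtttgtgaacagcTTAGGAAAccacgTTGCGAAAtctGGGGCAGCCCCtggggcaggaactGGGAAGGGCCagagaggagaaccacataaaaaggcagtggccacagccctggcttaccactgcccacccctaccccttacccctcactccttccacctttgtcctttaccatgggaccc
Masp1: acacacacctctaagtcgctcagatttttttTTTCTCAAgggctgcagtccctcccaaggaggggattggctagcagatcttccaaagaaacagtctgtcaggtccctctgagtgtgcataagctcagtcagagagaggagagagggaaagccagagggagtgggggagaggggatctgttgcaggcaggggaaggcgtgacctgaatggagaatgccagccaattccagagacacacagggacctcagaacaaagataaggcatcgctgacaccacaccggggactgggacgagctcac
The C3 window held 2 stretches with the C/EBP core TTNNGNAA, starting 117 and 104 bases before the start, and matches to the NF-κB core GGGNNNNNCC starting 93, 92 and 69 bases before it. The Masp1 window held 1 match, a C/EBP core on the opposite strand starting 219 bases before the start. Neither window held the TATA box TATAAA, the STAT core TTCNNNGAA or the interferon response core GAAANNGAAA. Such short motifs are common: of 33469 windows of the same length, 41.3% held the C/EBP core, 47.3% the NF-κB core, 14.2% the TATA box, 8.87% the STAT core and 3.92% the interferon response core. A match is a description of the letters and shows no binding.

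C1r and C1s encode the paired proteases of the C1 complex, and the genes are neighbours on the GRCr8 assembly. C1r (1383241_at) read 11.47 and 11.57 log2 with stretch and 11.60 and 11.43 log2 with phenylephrine, against 11.84 and 11.90 log2 in control cells. C1s (1387893_at) read 11.53 and 11.31 log2 with stretch and 11.57 and 11.23 log2 with phenylephrine, against 11.81 and 11.63 log2 in control cells. For both genes all 4 treated arrays lay below both controls, and the stretch and phenylephrine arrays overlapped. For C1r they were -0.35 ± 0.12 log2 with stretch (SE; adjusted p = 0.64) and -0.35 ± 0.12 log2 with phenylephrine (SE; adjusted p = 0.179). For C1s they were -0.30 ± 0.15 log2 with stretch (SE; adjusted p = 1) and -0.32 ± 0.15 log2 with phenylephrine (SE; adjusted p = 0.361). None of these 4 differences passed. The phenylephrine value of C1s was -0.15 log2 (adjusted p = 0.697) without phenylephrine replicate 2, the array that stood apart, and ranged from -0.49 to -0.15 log2 over the 6 omissions of 1 array. Its stretch value ranged from -0.41 to -0.19 log2. Stretch minus phenylephrine had a 95% interval of -0.27 to 0.28 log2 for C1r and of -0.34 to 0.37 log2 for C1s. Differences within these bounds remain possible.

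In the alternative pathway, factor D, the serine protease that cleaves factor B, was read by a dim probe set of Cfd (1388602_at). It read 7.77 and 7.79 log2 with stretch and 7.69 and 7.61 log2 with phenylephrine, against 7.70 and 7.77 log2 in control cells. The stretch and control arrays overlapped, the phenylephrine arrays lay just below the controls, and no difference passed. The differences were 0.04 ± 0.06 log2 for stretch minus control (SE; adjusted p = 1) and -0.09 ± 0.06 log2 for phenylephrine minus control (SE; adjusted p = 0.541). Signals below the array medians give compressed folds, and no detection calls were used. The 4 probe sets shared by Cfb and C2, which encode the related proteases of the C3-cleaving complexes, had differences from control between -0.11 and 0.00 log2 with stretch and between -0.20 and 0.03 log2 with phenylephrine. None passed, and the lowest adjusted p was 0.386. The values cannot be assigned to either gene.

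Serping1, the gene of the C1 inhibitor, had its lowest values under phenylephrine. Probe set 1372254_at read 10.95 and 10.81 log2 with stretch, 10.70 and 10.32 log2 with phenylephrine, and 11.18 and 10.90 log2 in control cells. Both phenylephrine arrays lay below the other 4, with phenylephrine replicate 2 lowest, while stretch and control overlapped. Phenylephrine minus control was -0.53 ± 0.16 log2 (SE; adjusted p = 0.145) and did not pass. It was -0.34 log2 (adjusted p = 0.34) without phenylephrine replicate 2, the array that stood apart. Stretch minus control was -0.16 ± 0.16 log2 (SE; adjusted p = 1), with -0.02 log2 without control replicate 1 and -0.30 log2 without control replicate 2. After quantile normalization of the arrays the differences of Serping1, C1r and C1s with phenylephrine passed (adjusted p = 0.0114, 0.0348 and 0.0386), at values of -0.52, -0.39 and -0.34 log2.

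The membrane regulators did not pass in any comparison. Cd55, which dissolves C3-cleaving complexes, was read by 2 dim probe sets. Probe set 1387951_at read 7.98 and 7.82 log2 with stretch and 7.88 and 7.82 log2 with phenylephrine, against 7.65 and 7.64 log2 in control cells. All 4 treated arrays lay above both controls, opposite to C3, C1r and C1s, with differences of 0.25 ± 0.07 log2 with stretch (SE; adjusted p = 0.398) and 0.21 ± 0.07 log2 with phenylephrine (SE; adjusted p = 0.179). The other Cd55 probe set, 1370406_a_at, lay between 7.59 and 7.77 log2 on all arrays with overlapping groups. Cd59, which blocks the membrane pore, was read by 1367929_at. It read 12.80 and 13.04 log2 with stretch and 12.88 and 12.75 log2 with phenylephrine, against 12.88 and 12.91 log2 in control cells. The groups overlapped, and the 95% intervals were -0.25 to 0.30 log2 for stretch minus control and -0.35 to 0.20 log2 for phenylephrine minus control.

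**Figure D2:**
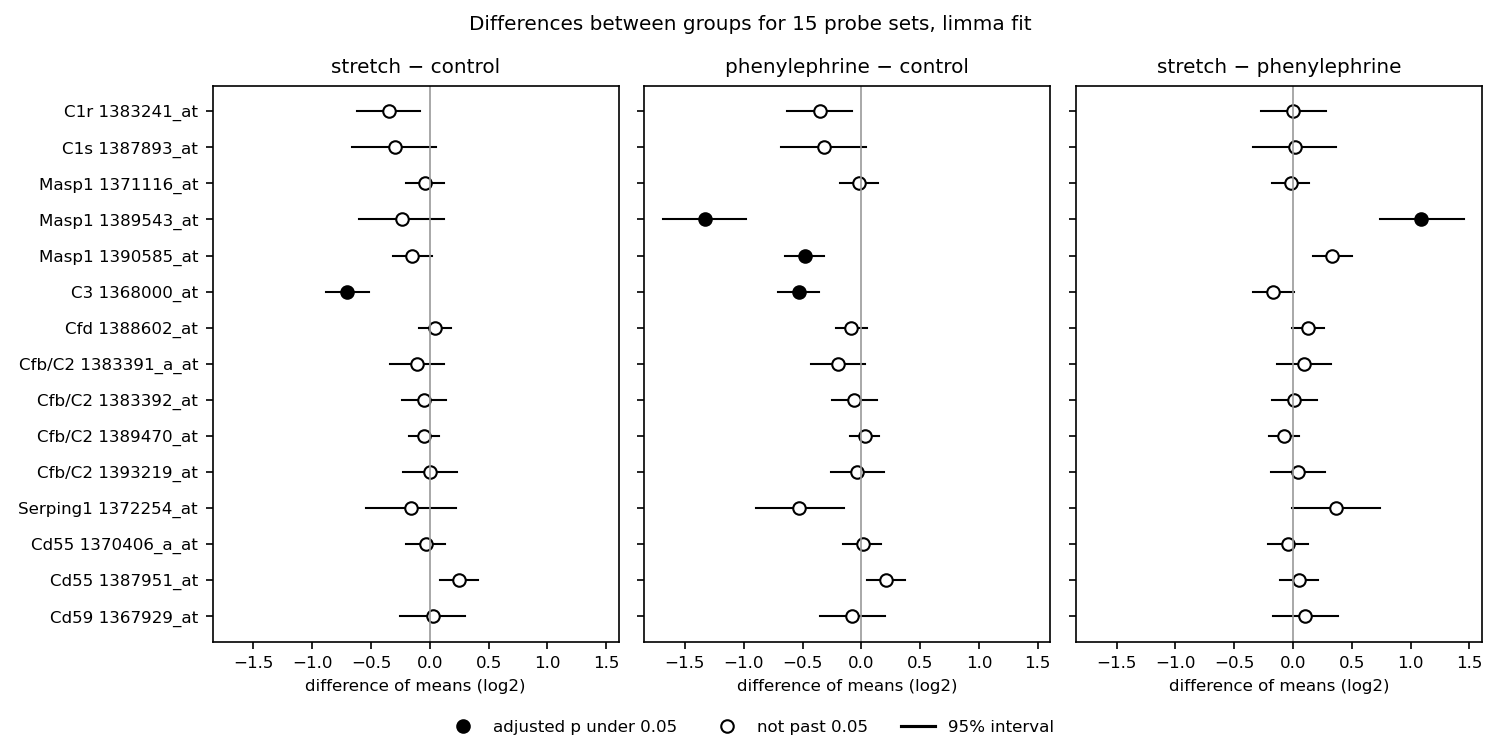
Differences of group means in log2 for all 15 probe sets, with stretch minus control, phenylephrine minus control and stretch minus phenylephrine from left to right. Points are differences, lines 95% intervals of the limma fit, and filled points passed an adjusted p of 0.05. Filled points are C3 in the first comparison, C3 and 2 Masp1 probe sets in the second, and Masp1 probe set 1389543_at in the third.

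Arrays that do not overlap are common with 2 arrays a group. With stretch, 8 of 15 probe sets lay below control without overlap and 1 above, against 16.5% and 19.4% of all probe sets. With phenylephrine, 9 of 15 lay below and 2 above, against 22.1% and 21.5%. Between stretch and phenylephrine, 4 of 15 lay higher with stretch and 2 lower, against 21.6% and 17.2%. Several of the 15 read the same gene and are not independent. The median difference of the 15 was -0.054 log2 with stretch and -0.087 log2 with phenylephrine, against 0.006 log2 over all probe sets in each case. For the 11 probe sets with 1 symbol it was -0.149 log2 with stretch and -0.320 log2 with phenylephrine. For the 8 genes by their brightest probe set it was -0.200 log2 with stretch and -0.336 log2 with phenylephrine, against 0.004 and 0.002 log2 over all genes.

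The other complement genes gave few calls. Of 52 further genes of the pathway, 37 had a probe set with 1 symbol, and the brightest probe set stood for each gene. With stretch 0 of 37 passed in limma, against 0.521% of all genes, and 2 had an unadjusted p under 0.05, against 5.54% of all probe sets. The unadjusted count was 7 of 37 for phenylephrine against control and 6 of 37 for stretch against phenylephrine. For these comparisons the unadjusted share over all probe sets was not computed, so the counts cannot be set against a background. With phenylephrine 0 rose and 2 fell, against 4.77% of all genes past the threshold, and between stretch and phenylephrine 1 was higher and 0 lower, against 1.84%. The medians were -0.003, 0.025 and -0.015 log2 for the 3 comparisons, against 0.004, 0.002 and 0.009 log2 over all genes.

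Colec12, a collectin and scavenger receptor of the vessel wall (1372818_at), read 10.01 and 9.71 log2 with stretch, 9.71 and 9.24 log2 with phenylephrine, and 10.52 and 10.30 log2 in control cells. All treated arrays lay below both controls, and it fell with phenylephrine by 0.94 ± 0.18 log2 (SE; adjusted p = 0.0328). The call ended without control replicate 1 (adjusted p = 0.176), control replicate 2 (adjusted p = 0.111) or phenylephrine replicate 2 (-0.70 log2; adjusted p = 0.0983). With stretch its value was -0.55 ± 0.18 log2 (SE; adjusted p = 0.606). Itgax, a subunit of complement receptor 4 on myeloid cells (1380077_at), read 8.45 and 8.42 log2 with stretch, 8.00 and 8.06 log2 with phenylephrine, and 8.36 and 8.40 log2 in control cells. Both phenylephrine arrays were lowest. It fell with phenylephrine by 0.35 ± 0.06 log2 (SE; adjusted p = 0.0275) and was higher with stretch than with phenylephrine by 0.40 ± 0.06 log2 (SE; adjusted p = 0.0305). With any 1 of the 6 arrays left out neither call passed, with adjusted p between 0.0543 and 0.204 for phenylephrine against control and between 0.065 and 0.232 for stretch against phenylephrine.

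No further gene of the list passed by its brightest probe set. A dimmer probe set of the membrane regulator Thbd passed and is given under other observations. By the brightest probe sets, the largest differences of other genes in roles without a call were as follows. They were those of C1qb in the classical pathway (-0.08 log2), Clu among soluble regulators (0.16 log2) and Cr1l among membrane regulators (-0.18 log2). The values were -0.14 log2 for Cfp, which stabilizes the alternative pathway's C3-cleaving complex, and 0.25 log2 for C8g, a subunit of the terminal pore. The value of C8g is stretch minus phenylephrine, that of C1qb stretch minus phenylephrine, and those of Clu, Cr1l and Cfp phenylephrine minus control. Clu, the chaperone clusterin, was read at 14.14 to 14.46 log2 on the 6 arrays. Cr1l encodes Crry, a rodent inhibitor of C3 cleavage, and was read at 10.95 to 11.42 log2.

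**Figure D3:**
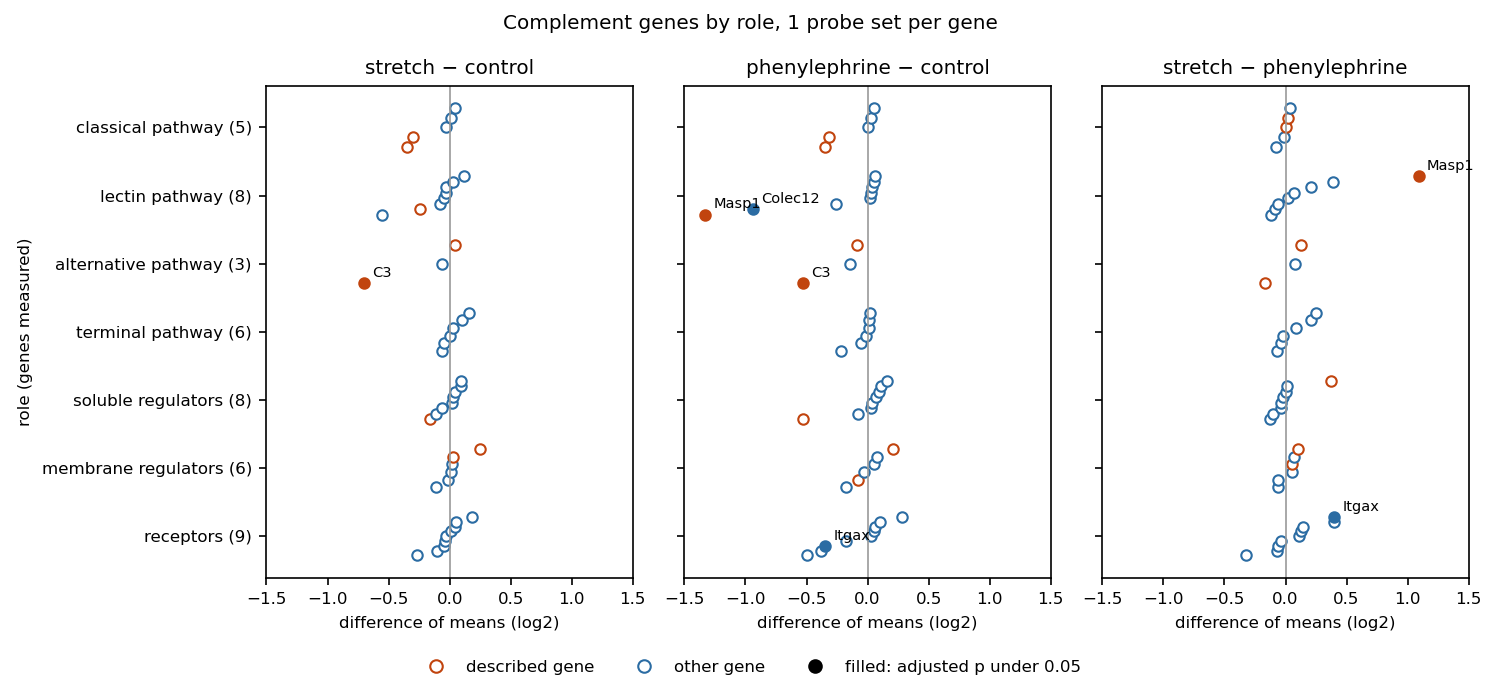
Differences of group means in log2 for 45 complement genes, 1 probe set per gene, in rows by role and with the comparisons as columns from left to right. Red circles are the 8 genes described first, blue circles other genes of the pathway, and filled circles passed an adjusted p of 0.05. Most genes lie near 0, and the filled ones are C3, Masp1, Colec12 and Itgax.

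Some markers of other cell types also differed between the groups. The shares of all genes past the threshold, for setting beside every marker list, were 4.77% with phenylephrine and 0.521% with stretch. Between stretch and phenylephrine the share was 1.84%. Of 11 fibroblast markers 4 fell with phenylephrine (Col3a1, Pdgfra, Dpt and Postn) and 0 with stretch, where 10 had values below 0. Their median was -0.22 log2 with stretch and -0.53 log2 with phenylephrine, against 0.004 and 0.002 log2 over all genes. Their summed signal was 15.14 to 15.20 log2 with stretch and 14.92 to 14.98 log2 with phenylephrine, against 15.41 to 15.45 log2 in control cells. The groups did not overlap, as for C3, though the lowest fibroblast sum was with phenylephrine and the lowest C3 signal with stretch. Of 12 macrophage and leukocyte markers, Cd68 fell with phenylephrine and 0 passed with stretch. Their sums were 13.43 to 13.45 log2 with stretch and 13.11 to 13.18 log2 with phenylephrine, against 13.46 to 13.48 log2 in control cells, with the stretch arrays beside the controls as for Itgax. The sums are of linear signals, in which bright genes such as Lyz2 weigh most, and the median of the 12 markers was -0.04 log2 with stretch and -0.07 log2 with phenylephrine, with 7 of 12 below 0 with phenylephrine. Of 9 endothelial markers, Kdr and Emcn fell with phenylephrine, 0 passed with stretch against control, and Kdr was higher with stretch than with phenylephrine. Endothelial sums were 11.96 log2 on both stretch arrays and 11.73 to 11.76 log2 with phenylephrine, against 12.06 to 12.07 log2 in control cells, while the median of the 9 markers was -0.08 log2 with stretch and -0.11 log2 with phenylephrine. The part of these cell types in the changes of C3, Masp1, C1r, C1s, Serping1, Colec12 and Itgax was not tested.

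The markers of heart muscle were bright in every group. Summed over 10 genes they reached 17.60 to 17.83 log2 with stretch and 17.80 to 17.97 log2 with phenylephrine, against 17.58 to 17.70 log2 in control cells, with 1 rise with phenylephrine (Nppa). Of 7 mesothelial markers Krt8 and Krt18 rose with phenylephrine, and the sums were 11.73 to 11.79 log2 with stretch and 11.76 to 12.05 log2 with phenylephrine, against 11.68 to 11.73 log2 in control cells. Of 7 hepatocyte markers Ttr rose with phenylephrine and was lower with stretch than with phenylephrine. The hepatocyte sums were 10.73 to 10.77 log2 with stretch and 10.88 to 10.92 log2 with phenylephrine, against 10.74 to 10.78 log2 in control cells. With stretch 0 markers of these 3 lists passed. An array signal has no true zero, so no marker can be called absent.

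**Figure D4:**
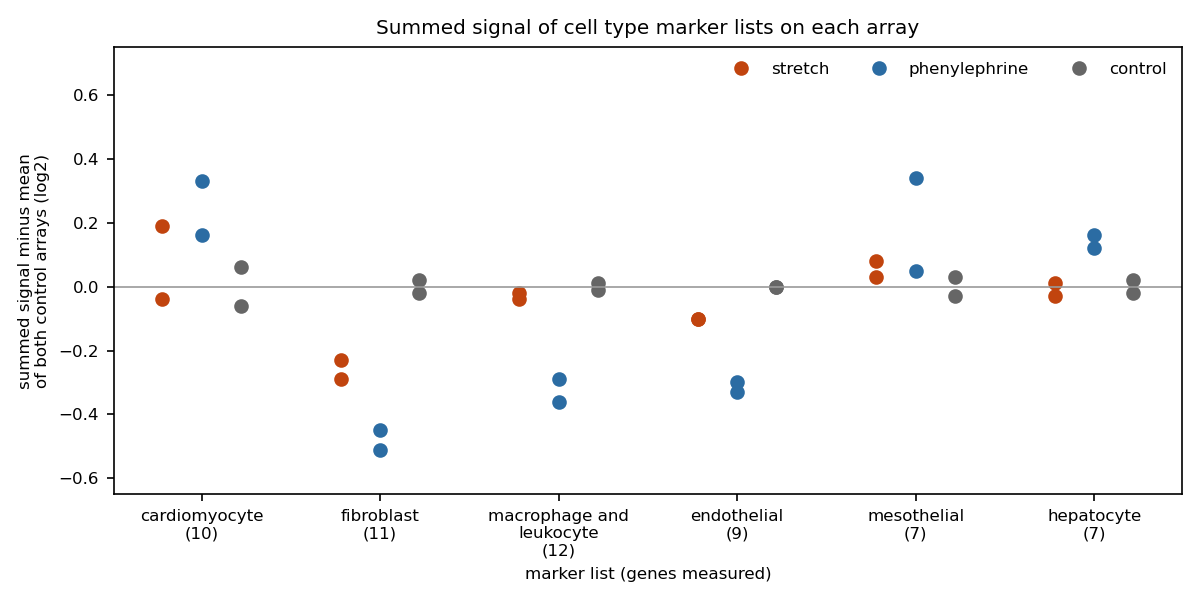
Summed signal of 6 marker lists on each array, as log2 difference from the mean of both control arrays, with stretch, phenylephrine and control from left to right within a list. Each point is 1 array. Fibroblast sums lie 0.23 to 0.29 log2 below control with stretch and 0.45 to 0.51 log2 below it with phenylephrine, while macrophage and endothelial sums are lowest with phenylephrine.

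Genes with the most similar pattern were found by the root mean square difference of the deviations from each probe set's mean over the 6 arrays. For C3 these were Kif26b (0.056 log2), the chemokine gene Cxcl3 (0.083 log2) and the angiotensin receptor gene Agtr1a (0.090 log2), which had values of -0.63, -0.51 and -0.64 log2 with stretch and -0.53, -0.47 and -0.50 log2 with phenylephrine. For Masp1 probe set 1389543_at they were the fatty acid binding protein gene Fabp4 (0.068 log2), the hepcidin gene Hamp (0.075 log2) and the receptor phosphatase gene Ptprk (0.086 log2). These had values of -1.20, -1.29 and -1.23 log2 with phenylephrine. For probe set 1390585_at they were Mif4gd, Dnah7 and Gstt2 (0.022 to 0.030 log2). Over 6 arrays such likeness is a description of these arrays.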

How the data were processed

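The authors' deposited table gives 1 value per probe set for each of 6 single-channel Affymetrix arrays. The values were taken as log2 signals because they ran from 5.80 to 15.18. The sources used here give no probe set summary, background correction or normalization method. The array medians differed by 0.0381 log2, under a limit of 0.3, so the deposited values were kept. From 31099 probe sets 57 array controls were left out. Genes were named by the platform annotation, in which 20826 probe sets had 1 symbol, and entrez identifiers of 20758 of them were found in RefSeq (GRCr8).

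With limma 3.58.1 (R 4.3.3; lmFit, eBayes with a mean-variance trend) the mean of each group was fitted on the 6 arrays together. The two-sided p-values were adjusted by Benjamini-Hochberg over 31042 probe sets. The fit was also run on simulated data with independent errors drawn from the fitted variances. Such data lack deviations shared between arrays, so the run does not cover these. Exact permutation tests were not used, since 2 against 2 arrays can never pass the threshold. A gene was represented by its brightest probe set.

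All probe sets of the 9 genes are described. Of the other pathway genes, those past 0.05 in any comparison are named, or else the 1 with the largest change per role, and so are the 3 most similar genes per probe set that passed. The members and lists were chosen with earlier results of these data known. Alternatives were quantile normalization, no variance trend, the brighter part of the probe sets, a replicate block, only the groups compared, other probe sets and each array left out.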

Additional observations from a re-analysis of the deposited data

How the results depend on the processing

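The differences of the 22 named probe sets kept direction and side of the threshold in 288 of 309 values under other settings and in 345 of 396 values with 1 array left out. Most of these values had not passed in the main fit. Keeping their side of the threshold was easy for them, so the counts say little about the calls. The calls rest on few arrays, and those that ended are named with their genes above. With 1 array left out, probe sets called over the whole array ranged from 26 to 112 for stretch against control, from 189 to 1249 for phenylephrine against control and from 51 to 473 for stretch against phenylephrine, and those of the 9 genes from 0 to 1, from 1 to 3 and from 0 to 1 (genes 0 to 1, 1 to 2 and 0 to 1). Other pathway genes called ranged from 0 to 2 with phenylephrine and were 0 in each omission for both other comparisons. Quantile normalization called 386 (280 higher and 106 lower, against 95 and 12 without it), 2790 and 1527 probe sets in the 3 comparisons. With phenylephrine it called 6 probe sets of 5 described genes and 4 other pathway genes, and between stretch and phenylephrine 2 described probe sets. In a fit of only the groups compared, 661 and 230 probe sets passed for phenylephrine against control and stretch against phenylephrine, with 1 and 0 other pathway genes. For stretch against phenylephrine, the brighter part of the probe sets gave 0 other genes, since Itgax was filtered out, and every probe set of the listed genes, an alternative chosen after seeing the data, gave 2.

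With the replicate block 1028, 5384 and 3734 probe sets passed in the 3 comparisons, 2, 7 and 3 of the described probe sets (2, 6 and 2 genes), and 2, 7 and 6 other pathway genes. Under this block Serping1 (adjusted p = 0.000905), C1r (0.0233), C1s (0.026), Cd55 1387951_at (0.0314) and C8g (0.0433) passed with phenylephrine, and Cd55 1387951_at (0.0391) and Colec12 (0.00162) with stretch. Between stretch and phenylephrine, Masp1 1390585_at (0.00364), Serping1 (0.0137), Colec12 (0.00678) and C8g (0.0326) passed. Deviations of same-numbered arrays correlated over probe sets at 0.487 to 0.673 between groups, a hint from the data, since no label says that equal numbers belong together. Replicate 2 also had the narrower interquartile range in every group. The part of this shared spread in the correlations, and in the calls added by the block and by quantile normalization, was not tested.

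Small values that did not pass changed sign. With quantile normalization these were Cd59 (-0.043) and Clu (-0.064) for stretch minus control, Cd55 1370406_a_at (-0.002) for phenylephrine minus control and Cfb/C2 1383392_at (-0.051) for stretch minus phenylephrine. With 1 array left out, stretch minus control ranged from -0.068 to 0.125 for C8g, -0.083 to 0.019 for Cd55 1370406_a_at, -0.089 to 0.146 for Cd59, -0.137 to 0.140 for Cfb/C2 1393219_at, -0.067 to 0.131 for Clu and -0.103 to 0.028 for Masp1 1371116_at. Phenylephrine minus control ranged from -0.025 to 0.122 for C1qb, -0.075 to 0.092 for Cd55 1370406_a_at, -0.176 to 0.102 for Cfb/C2 1393219_at and -0.382 to 0.028 for Cr1l. Stretch minus phenylephrine ranged from -0.080 to 0.089 for C1r, -0.153 to 0.186 for C1s, -0.124 to 0.043 for Cd55 1370406_a_at, -0.036 to 0.127 for Cd55 1387951_at, -0.014 to 0.221 for Cd59, -0.020 to 0.032 for Cfb/C2 1383392_at, -0.003 to 0.079 for Cfb/C2 1393219_at, -0.133 to 0.277 for Cr1l and -0.085 to 0.046 for Masp1 1371116_at. The cause was not tested.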

Other observations

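Thbd, the gene of thrombomodulin, a membrane protein that dampens coagulation and complement peptides, had 3 probe sets, and the brightest, 1368900_at, did not pass in any comparison. The probe set 1375951_at rose with phenylephrine by 0.31 ± 0.06 log2 (SE; limma adjusted p = 0.0331) and was lower with stretch than with phenylephrine by 0.43 ± 0.06 log2 (SE; adjusted p = 0.0184). Its stretch minus control value was -0.13 ± 0.06 log2 (SE; adjusted p = 0.957). It was chosen after its values were seen. The other probe sets of Thbd had the same signs in these comparisons but smaller values, and did not pass. Phenylephrine minus control was 0.05 log2 for 1368900_at and 0.18 log2 for 1368901_at. Stretch minus phenylephrine was -0.06 and -0.20 log2.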
